A study of Mus musculus with 18 samples.

Results

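The genes described here encode the proteins of the mitochondrial ribosome in the mouse left ventricle. They were chosen by symbol, as the protein-coding genes that start with Mrpl or Mrps followed by a digit and that had a mean raw count of at least 10 over the libraries. Of 78 such symbols among 55450 genes in the count table, 77 met the minimum, 48 named Mrpl for the large subunit and 29 named Mrps for the small subunit. The exception, Mrpl53, was at 0 counts in every library; 88.0% of its exon bases are shared on the same strand with Gm42688, which had 9 to 24 counts. The lowest member that met the minimum was Mrpl23, with a mean count of 67.7. All 77 also passed the filter of the tests on low counts, so that no member was lost before testing.

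RNA was sequenced from left ventricles of FVB/N mice in 4 groups, with 18 libraries in all. Wild-type (WT) mice and mice that overexpress Gαq (gene Gnaq) received control diet (CD) or chow with ertugliflozin (ERTU), an inhibitor of the sodium-glucose cotransporter SGLT2, at 0.5 mg/g. Treatment began at 4 weeks of age and lasted 16 weeks, so that all hearts were taken at 20 weeks. On CD there were 4 WT and 5 Gαq libraries, and on ERTU 5 WT and 4 Gαq libraries, named below by group and by the number of their column in the table. The overexpression is cardiac-specific and was present in both Gαq groups, at levels that are given below. The ventricle was powdered whole, and fewer muscle cells and less RNA per muscle cell cannot be told apart.

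Mitochondria have their own ribosome. All of its proteins are encoded in the nucleus, made in the cytosol and imported, while its ribosomal RNAs come from mitochondrial DNA. This ribosome makes only the few core subunits of the respiratory chain and ATP synthase that mitochondrial DNA encodes, and the heart, which draws most of its energy from oxidative phosphorylation, depends on it. The small subunit reads the messenger RNA, and the large subunit joins the amino acids and releases the chain through a tunnel at the inner membrane. Some of the proteins have bacterial relatives and others are found only in mitochondria. The symbols do not always tell the place of the protein: those of Mrps18a and Mrps30 sit in the large subunit, and that of Mrps36 is now known as a component of the 2-oxoglutarate dehydrogenase complex.

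Before the members, the targeted gene was checked in every group. Gnaq was at 118 ± 70.6 CPM (reads scaled to a common library size; SD, n = 4) in WT CD and 7473 ± 3818 (n = 5) in Gαq CD, with no overlap, and at 111 ± 75.1 (n = 5) in WT ERTU and 3216 ± 1371 (n = 4) in Gαq ERTU. Each genotype difference had an exact two-sided permutation p of 0.0159, the smallest that 4 against 5 libraries allow. The mean log2 level of Gnaq was 1.04 lower in Gαq ERTU than in Gαq CD, a difference that did not pass (exact permutation p = 0.143). The libraries held 15383566 to 20908363 counts. The 10 cardiac muscle cell markers were all detected. Their summed CPM ranged from 77131 to 108515 in WT CD and 72205 to 104133 in WT ERTU. In Gαq CD it ranged from 72816 to 94786 and in Gαq ERTU from 72358 to 97398. The means were 93616, 92545, 80622 and 81405 CPM in the same order. With diet in the model, 3 of the 10 were called lower in Gαq and 0 higher, against 9.92% and 9.72% of all genes. Of their log2 fold changes, 6 were negative and 4 positive. Of 8 fibroblast markers, 6 were called higher in Gαq, and their sum ranged from 1659 to 3149 in WT CD, 1542 to 2885 in WT ERTU, 3013 to 4390 in Gαq CD and 2897 to 3572 in Gαq ERTU. Of 5 atrial markers tested, 1 was called higher, Nppa, a natriuretic peptide gene that strained ventricles also express, at a log2 fold change of 5.03 ± 0.26. Myl4, Sln, Myl7 and Stard10 were not called, at 1.65 ± 0.93, 1.65 ± 1.00, 0.65 ± 1.00 and 0.18 ± 0.20. The summed CPM of the atrial markers, which includes Nppa, ranged from 389 to 629 in WT CD and 217 to 882 in WT ERTU. It ranged from 10660 to 19121 in Gαq CD and 14286 to 21293 in Gαq ERTU, with no overlap between genotypes. The part of these cell types in the results below was not tested.

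In Gαq hearts the messenger RNAs of the mitochondrial ribosome were lower, in both subunits. With diet in the model, 29 of the 77 members fell and none rose (edgeR quasi-likelihood test, adjusted p under 0.05, Benjamini-Hochberg over 16270 genes). Of all genes tested, 9.92% fell and 9.72% rose, while 37.7% of the members fell. The fall reached 20 of the 48 Mrpl genes and 9 of the 29 Mrps genes. The median log2 fold change was -0.19 over the members, with quartiles at -0.30 and -0.09, against 0.00 over all genes tested. It was -0.19 for Mrpl and -0.18 for Mrps genes, and 67 of the 77 values were negative. At an unadjusted p under 0.05, 45 members were lower and 2 were higher, against 16.0% and 15.9% of all genes. Thus the individual differences were small, with the steepest a level that fell by 32.9%, and both subunits took part. Exons of 32 members overlap exons of another gene, 8 of them among the genes that fell. Besides Mrpl12, Mrpl47 and Mrps34, taken up with their values, these were Mrpl14, with 11.2% of its exon bases shared with Tmem63b, Mrps30 (9.35%, B430218F22Rik), Mrpl44 (7.66%, Wdfy1) and Mrpl9 (5.81%, Oaz3), all on opposite strands, and Mrpl3 (3.72%, Gm38077, same strand). With library totals in place of TMM scaling 25 members fell, and of all genes 1244 fell and 1988 rose, where TMM gave 1614 and 1582.

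**Figure D1:**
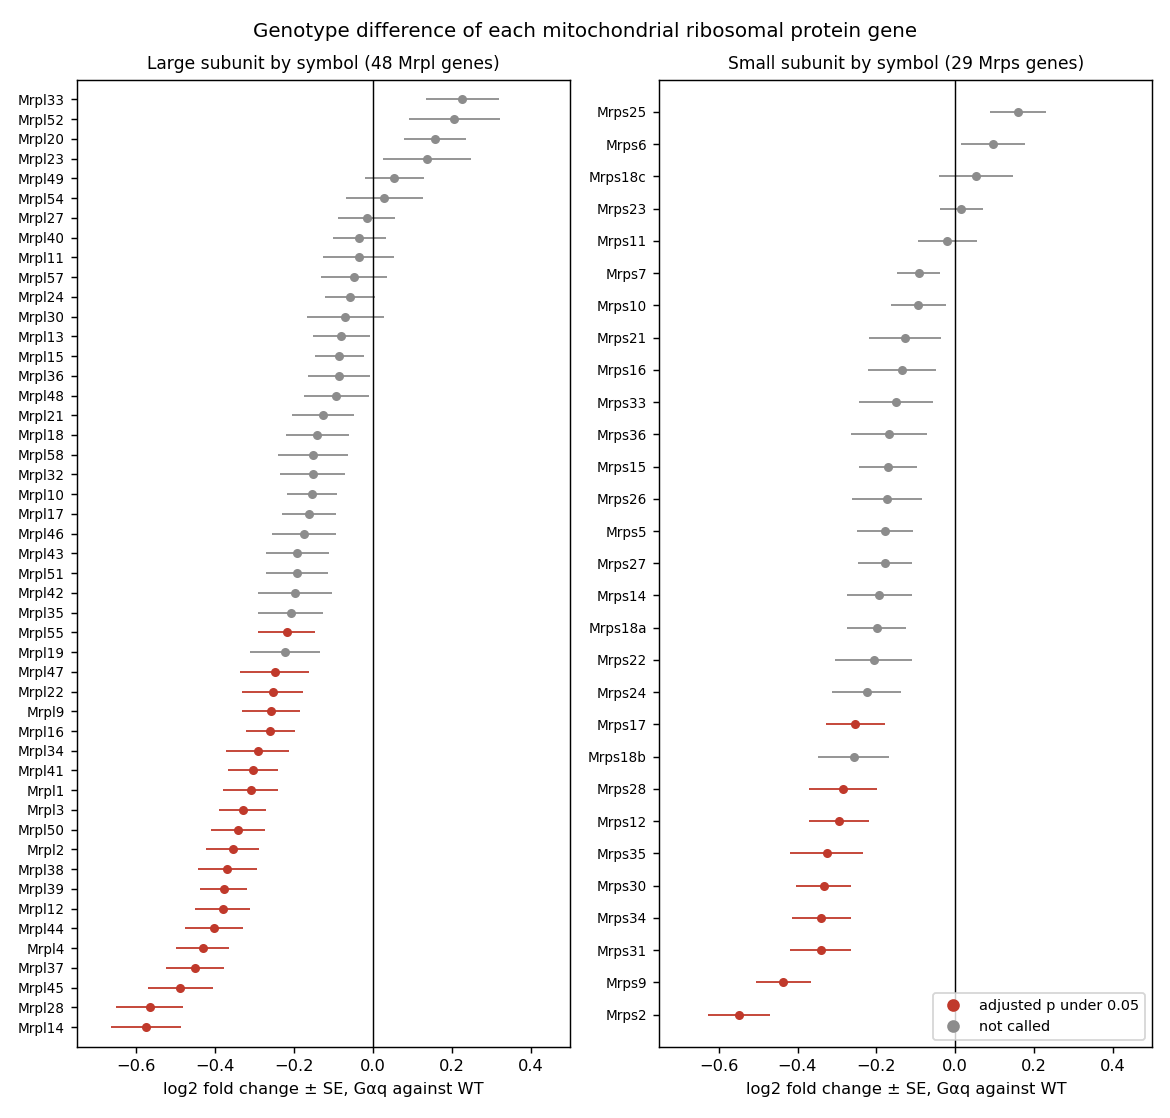
Points give the log2 fold change of Gαq against WT for each of the 77 genes, with diet in the model, and lines give its standard error; red marks an adjusted p under 0.05. The 29 called genes all lie to the left of 0, from -0.22 to -0.58, and the 10 genes to the right of 0 are not called.

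Mrpl28, Mrpl14, Mrps2 and Mrps9, the Mrpl and Mrps pairs with the smallest p by genotype, represent the fall. The bases just before their transcription starts are given below. The sequences are the 120 bases before the RefSeq start on GRCm38.p6, 5′ to 3′, and capitals mark matches to any of 7 short motifs searched on both strands: GCATGCGC for NRF-1, CCGGAAG for ETS factors such as GABP, AAGATGGC and the looser AANATGGC for YY1, TCAAGGTCA and its core AAGGTCA for the estrogen-related receptors, and CACGTG, the E-box. The 4 genes that fell hold no match in this stretch, nor in the whole window of 250 bases before and 50 after the start. Mrpl3 and Mrpl22, which also fell, and Mrpl27, which was not called, were chosen after their values were seen to show the ETS match that many other members carry.
Mrpl28, chr17:26123383-26123502, plus strand: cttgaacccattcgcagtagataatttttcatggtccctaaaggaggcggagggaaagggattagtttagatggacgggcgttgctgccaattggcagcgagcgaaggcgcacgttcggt
Mrpl14, chr17:45686229-45686348, plus strand: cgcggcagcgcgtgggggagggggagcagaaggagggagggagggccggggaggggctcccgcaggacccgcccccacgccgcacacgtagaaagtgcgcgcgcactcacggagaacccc
Mrps2, chr2:28467946-28468065, plus strand: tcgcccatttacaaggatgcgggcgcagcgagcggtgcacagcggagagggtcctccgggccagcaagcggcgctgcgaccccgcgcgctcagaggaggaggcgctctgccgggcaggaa
Mrps9, chr1:42851113-42851232, plus strand: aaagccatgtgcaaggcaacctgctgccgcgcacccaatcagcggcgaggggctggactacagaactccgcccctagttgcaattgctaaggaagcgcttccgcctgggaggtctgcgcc
Mrpl3, chr9:105053148-105053267, plus strand: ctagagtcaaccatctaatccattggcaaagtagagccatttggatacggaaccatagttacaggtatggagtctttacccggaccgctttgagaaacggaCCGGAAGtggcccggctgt
Mrpl22, chr11:58171544-58171663, plus strand: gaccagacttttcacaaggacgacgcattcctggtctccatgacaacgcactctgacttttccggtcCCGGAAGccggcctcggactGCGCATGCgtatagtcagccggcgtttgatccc
Mrpl27, chr11:94653671-94653790, plus strand: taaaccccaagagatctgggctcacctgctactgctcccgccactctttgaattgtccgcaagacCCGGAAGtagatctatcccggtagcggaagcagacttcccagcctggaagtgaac

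The RefSeq table held a promoter for 68 of the 77 members and for 27025 gene symbols in all. In this window the ETS letters were found in 25 of the 68 members, or 36.8%, against 9.93% of all promoters and 18.7% of the 11243 that belong to genes tested here. The looser YY1 letters were found in 30.9% of the members, 6.96% of all promoters and 9.33% of the tested ones, and the NRF-1 letters in 11.8%, 3.05% and 5.51%. The strict YY1 form, a part of the looser one, was in 17.6%, 3.19% and 4.85%. The E-box was in 7.35% of the members, 8.09% of all promoters and 11.5% of the tested ones. The short estrogen-related receptor core was in 5.88%, 5.38% and 4.03%, and its long form in 0 of 68, 0.466% and 0.329%. Of the 24 members that fell and have a promoter entry, 4 held the ETS letters, and of the 44 that were not called, 21 did. These are descriptions of letters in a window, and no test was made of them.

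Among the large subunit proteins with a bacterial relative, 12 of 29 fell, with a median log2 fold change of -0.16. Mrpl14 (chromosome 17, 45686322 to 45698495, GRCm38) encodes a protein of the face that meets the small subunit. Its CPM were 80.0, 69.4, 76.8 and 59.8 in WT CD libraries 1, 2, 4 and 5, 69.7, 69.6, 84.7, 68.4 and 71.1 in WT ERTU, 47.8, 38.5, 42.8, 43.9 and 53.2 in Gαq CD and 65.2, 40.4, 52.2 and 49.1 in Gαq ERTU. The groups do not overlap on either diet, although Gαq ERTU library 16 is above the lowest WT CD library. The fitted level fell by 32.9%, at a log2 fold change of -0.58 ± 0.09 (SE; adjusted p = 7.3e-05 by edgeR), the steepest of all members.

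Mrpl28 (chromosome 17, 26123500 to 26126613) was at 108, 126, 128 and 95.9 CPM in WT CD and 104, 118, 139, 96.0 and 123 in WT ERTU. It was at 91.0, 64.1, 82.4, 76.0 and 75.2 in Gαq CD and 85.9, 83.4, 76.6 and 65.8 in Gαq ERTU. Every Gαq library lies below every WT library, and the log2 fold change was -0.57 ± 0.09 (adjusted p = 5.8e-05, edgeR). The same separation of all 9 Gαq from all 9 WT libraries was seen for Mrpl4, Mrpl37 and Mrpl45, so for 4 of the 77 members; 1.83% of all genes tested were lower in this way. Mrpl4 (chromosome 9, 21002738 to 21008839), whose bacterial relative lines the exit tunnel, had 82.1 ± 9.12 CPM (SD, n = 4) in WT CD, 84.9 ± 9.67 (n = 5) in WT ERTU, 62.8 ± 4.84 (n = 5) in Gαq CD and 61.0 ± 3.93 (n = 4) in Gαq ERTU. Its log2 fold change was -0.43 ± 0.07. Mrpl3, Mrpl12, Mrpl2, Mrpl1, Mrpl16, Mrpl34, Mrpl9, Mrpl22 and Mrpl47 complete the called genes of this class, with log2 fold changes from -0.38 to -0.25.

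Mrpl12 (chromosome 11, 120484613 to 120489065) encodes the mitochondrial L7/L12 protein of the stalk, which draws in translation factors, and has also been found to bind the mitochondrial RNA polymerase. It fell, from 133 ± 16.4 CPM (SD, n = 4) in WT CD and 142 ± 10.2 (n = 5) in WT ERTU to 107 ± 8.61 (n = 5) in Gαq CD and 104 ± 10.9 (n = 4) in Gαq ERTU, with a log2 fold change of -0.38 ± 0.07 (adjusted p = 0.00046, edgeR). Its partners in the stalk and its base were not called: the log2 fold change of Mrpl10 was -0.16 ± 0.06, of Mrpl11 -0.04 ± 0.09 and of Mrpl54 0.03 ± 0.10. Gm11574, on the opposite strand, covers 14.1% of the exon bases of Mrpl10. Thus 1 of the 4 tested genes of the stalk and its base was called, out of 5 listed. Among all members 37.7% fell, and 4 genes are too few to set apart from that share. An antisense gene, Gm16755, covers 13.1% of the exon bases of Mrpl12.

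Of the large subunit proteins found only in mitochondria, 9 of 21 fell, with a median of -0.20, counting Mrps18a and Mrps30 here by the place of their proteins. Mrpl37 (chromosome 4, 107055874 to 107066868) was at 86.2, 86.4, 78.0 and 69.5 CPM in WT CD and 98.5, 82.7, 83.9, 67.0 and 84.3 in WT ERTU. It was at 66.8, 54.7, 65.2, 61.9 and 56.5 in Gαq CD and 59.2, 65.1, 53.1 and 56.1 in Gαq ERTU. The lowest WT value, 67.0, and the highest Gαq value, 66.8, almost touch, and the log2 fold change was -0.45 ± 0.07 (adjusted p = 0.00014, edgeR). Mrps30, whose protein lies in the large subunit, fell with a log2 fold change of -0.33 ± 0.07, while Mrps18a had -0.20 ± 0.08 (adjusted p = 0.068, edgeR). The others called were Mrpl38, Mrpl39, Mrpl41, Mrpl44, Mrpl45, Mrpl50 and Mrpl55.

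The 8 genes listed for the ring around the peptide exit tunnel, which leave out Mrpl4, included 5 that fell. These were Mrpl39, Mrpl44, Mrpl45, Mrpl22 and Mrpl47, and the median of the 8 was -0.25. The share that fell was 37.7% of all members and 9.92% of all genes tested. With library totals in place of TMM scaling, Mrpl22 and Mrpl47 were not called. Mrpl45 (chromosome 11, 97315716 to 97329920) encodes the protein that ties the ribosome to the inner membrane at the tunnel exit. It was at 49.4, 46.2, 56.0 and 42.0 CPM in WT CD and 50.3, 52.7, 51.0, 42.4 and 61.6 in WT ERTU, against 39.2, 38.1, 40.1, 41.3 and 32.2 in Gαq CD and 33.3, 36.8, 30.2 and 32.4 in Gαq ERTU. The lowest level of any WT library was 42.0 and the highest of any Gαq library 41.3, at a log2 fold change of -0.49 ± 0.08. Mrpl39 had a log2 fold change of -0.38 ± 0.06. Mrpl47 was the last member past the threshold, with an adjusted p of 0.0497 (edgeR), and exons of Actl6a and Ndufb5 on the opposite strand cover 10.2% and 13.9% of its exon bases. Mrpl17, Mrpl23 and Mrpl24 were not called, at -0.16 ± 0.07, 0.14 ± 0.11 and -0.06 ± 0.06; exons of Rrnad1 on the opposite strand cover 26.3% of those of Mrpl24.

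In the small subunit, 5 of 16 genes with a bacterial relative and 3 of 10 found only in mitochondria fell, with medians of -0.17 and -0.19. Mrps2 (chromosome 2, 28468066 to 28471178) had the smallest p of all members. Its CPM were 43.5, 42.6, 39.5 and 33.7 in WT CD, 48.9, 41.9, 39.7, 30.9 and 43.2 in WT ERTU, 29.6, 28.1, 26.3, 31.9 and 27.2 in Gαq CD and 26.6, 27.6, 27.7 and 24.8 in Gαq ERTU. The Gαq ERTU libraries lie within 24.8 to 27.7, and across diets a single WT ERTU library, number 14 at 30.9, falls below a single Gαq CD library, number 9 at 31.9. The log2 fold change was -0.55 ± 0.08 (adjusted p = 3.2e-05, edgeR), with a level that fell by 31.6%.

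Mrps9 (chromosome 1, 42851233 to 42905683), which reaches the transfer RNA in the decoding site in its bacterial relative, was at 130, 130, 116 and 93.6 CPM in WT CD and 134, 120, 121, 120 and 124 in WT ERTU. It was at 98.2, 77.8, 83.1, 83.2 and 87.7 in Gαq CD and 107, 85.4, 87.7 and 89.3 in Gαq ERTU. On CD the groups overlap only through WT CD library 5 at 93.6 and Gαq CD library 6 at 98.2, and the log2 fold change was -0.44 ± 0.07. Mrps12, a decoding-centre protein, had -0.30 ± 0.08, and Mrps17 and Mrps28 -0.25 ± 0.08 and -0.28 ± 0.09. Of the proteins found only in mitochondria, Mrps31, Mrps34 and Mrps35 fell, at -0.34 ± 0.08, -0.34 ± 0.07 and -0.33 ± 0.09. The value of Mrps34 is uncertain, since exons of Mapk8ip3 on the opposite strand and of Nme3 on the same strand cover 63.4% and 37.0% of its exon bases. Just outside the threshold was Mrps18b, at -0.26 ± 0.09 on the log2 scale (adjusted p = 0.0505, edgeR), with 30.5% of its exon bases opposite those of Gm16279.

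**Figure D2:**
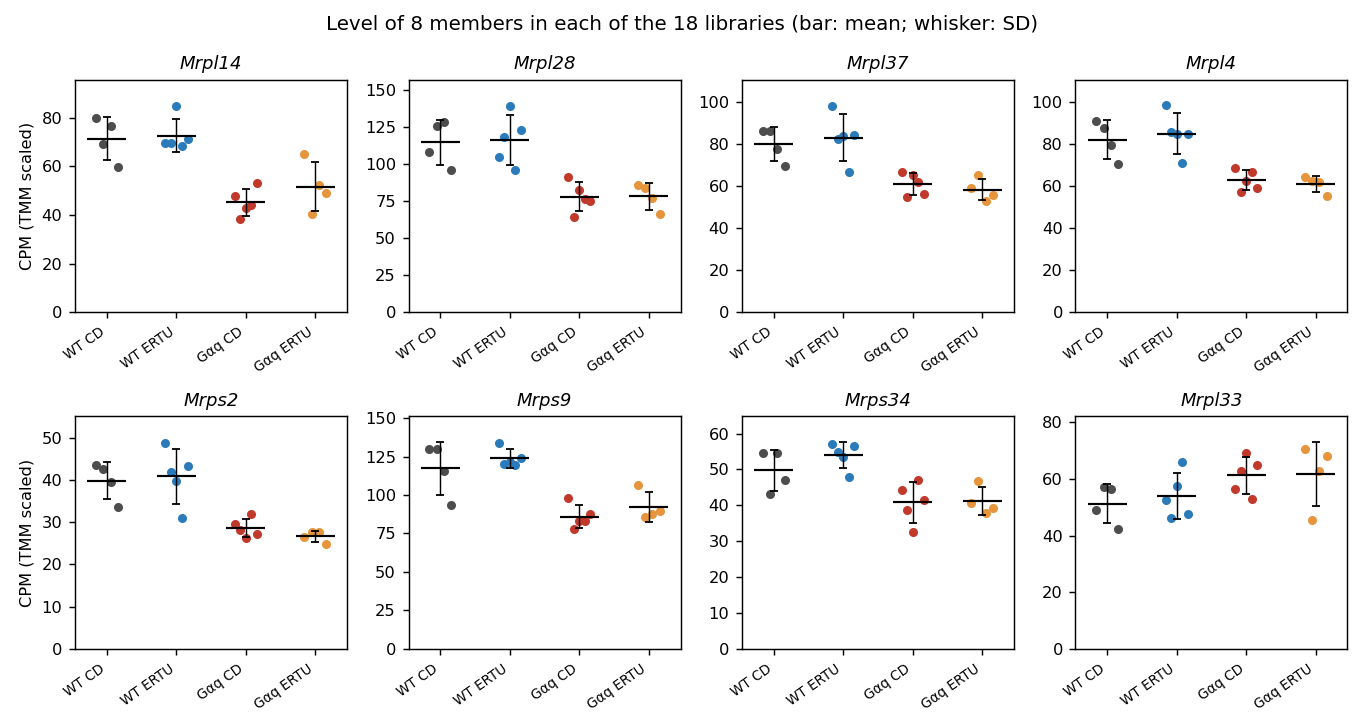
Points give the TMM-scaled CPM of 8 members in each of the 18 libraries by group, bars the mean and whiskers the SD; each vertical axis starts at 0. For Mrpl28, Mrpl37 and Mrpl4 the highest Gαq library lies below the lowest WT library, and Mrpl33 is the one panel whose Gαq means, 61.3 and 61.8, are above the WT means, 51.3 and 54.0.

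Mutations in 4 of these genes cause cardiomyopathy in humans, and 2 of the 4 fell. Mrpl3, of the subunit that forms the peptide bond, was at 111, 110, 111 and 96.0 CPM in WT CD, 122, 114, 104, 107 and 109 in WT ERTU, 97.4, 90.7, 84.1, 97.8 and 79.4 in Gαq CD and 87.6, 85.7, 81.4 and 79.7 in Gαq ERTU. Its groups are apart on ERTU, whereas on CD WT library 5 is below Gαq libraries 6 and 9. The log2 fold change of Mrpl3 was -0.33 ± 0.06, and that of Mrpl44, a protein with a ribonuclease III-like fold, was -0.40 ± 0.07. Mrps14 and Mrps22 were not called, at -0.19 ± 0.08 and -0.21 ± 0.10 (adjusted p = 0.11 and 0.14, edgeR).

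Among the 10 members with a positive value none was called. Mrpl33 (chromosome 5, 31596935 to 31664384), with the shortest coding sequence of the members, was at 49.0, 57.3, 56.6 and 42.5 CPM in WT CD and 52.5, 46.2, 57.6, 66.0 and 47.7 in WT ERTU. It was at 56.5, 62.8, 69.3, 53.0 and 64.8 in Gαq CD and 70.6, 45.6, 62.9 and 68.2 in Gαq ERTU. The groups overlap on both diets, and the log2 fold change was 0.23 ± 0.09 (adjusted p = 0.094, edgeR). Mrps23, 1 of the 3 most abundant Mrps genes per length, stayed within 128 to 160 CPM in all libraries, with a log2 fold change of 0.02 ± 0.05.

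The members differ far more in level than in response. Per kilobase of the transcript with the longest coding sequence, the mean level ranged from 5.01 to 308 CPM, with medians of 34.8 for Mrpl and 19.8 for Mrps genes. Mrpl42, Mrpl30 and Mrpl33 were the highest of the large subunit, at 308, 180.0 and 120 CPM per kilobase, and Mrps21, Mrps23 and Mrps9 of the small one. Mrpl23 and Mrpl17 were the lowest of the large subunit, at 5.01 and 5.91, and Mrps5 and Mrps33 of the small one, at 7.97 and 8.12. Where transcripts tied in coding length the longest was taken, so this order and the medians also depend on the annotated transcript length. Mrpl17, at a mean of 43.2 CPM, was divided by 7300 bases, and Mrpl22, at 16.1 CPM, by 722.

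Members with longer coding sequences were lower in Gαq hearts than those with shorter ones. In the 26 members with the longest coding sequences, 756 to 1326 bases, 17 fell, with a median log2 fold change of -0.33. Of the 25 with 501 to 753 bases 5 fell, and of the 26 with 195 to 498 bases 7 fell, with a median of -0.14 in each. For all protein-coding genes tested, cut at the same lengths, the share that fell was 11.2%, 10.1% and 7.61%. Their longest group had no upper bound, with 10929 genes of 756 to 105639 bases, so it was not matched to the members in length. Across the 77 members the Spearman correlation of coding length with the log2 fold change was -0.50, and it was -0.50 on CD and -0.44 on ERTU, comparisons with no library in common. It was -0.065 over 13611 protein-coding genes of any length, and -0.03 over the members for the difference between diets. Whether other genes of 195 to 1326 bases show the same trend was not tested. The median coding length is alike in the subunits, 589.5 and 588 bases. Mean count, which also bears on a call, had a correlation of -0.26 with the log2 fold change, and genes of 1 tissue are not independent points.

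**Figure D3:**
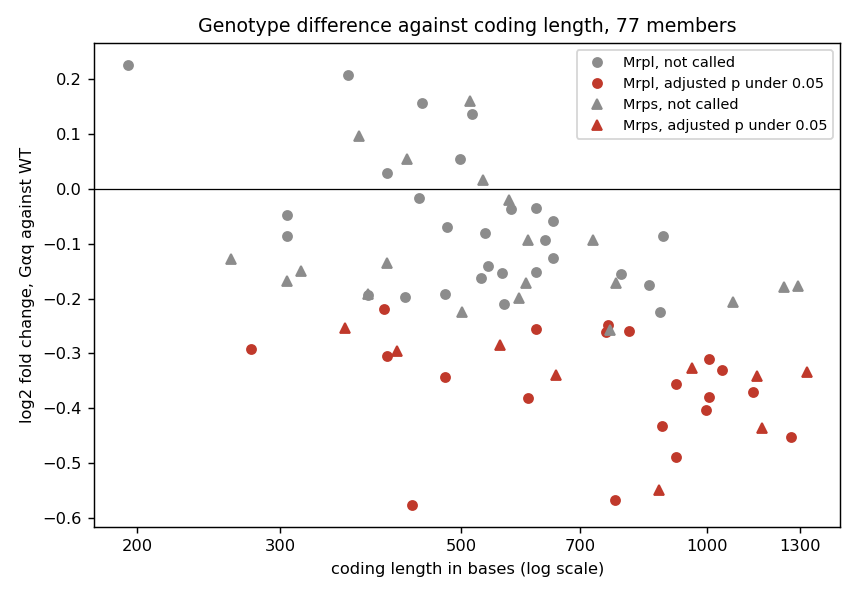
Each point is 1 of the 77 members, placed by coding length in bases on a log scale and by the log2 fold change of Gαq against WT; circles are Mrpl, triangles Mrps and red an adjusted p under 0.05. Points fall from left to right, with 17 of the 26 longest called lower, and the highest point is the shortest gene, Mrpl33 with 195 bases.

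The difference between genotypes was then taken on each diet. On CD, 11 members fell, 9 Mrpl and 2 Mrps genes, and 0 rose; 4.1% of all genes tested fell and 4.0% rose. On ERTU, 21 members fell, 16 Mrpl and 5 Mrps genes, and 0 rose, with 4.24% of all genes falling and 3.93% rising. The medians over the members were -0.14 on CD and -0.22 on ERTU, and -0.08 and -0.17 with library totals. The test of the difference between these effects, the interaction, called 0 members and 0.0% of all genes, and at an unadjusted p under 0.05 it gave 1 member, Mrpl34, and 1.92% of all genes. Hence the larger count on ERTU does not show a larger effect. The interaction values were negative for 59 of the 77 members, with a median of -0.08, and for 51.1% of all genes. Without WT CD library 5 that median was -0.008. The counts also rest on single libraries: on CD the count was 20 without WT CD library 5, 4 and 5 without WT CD libraries 1 and 2, and 6, 7 and 7 without Gαq CD libraries 7, 8 and 9, and on ERTU it was 12 without Gαq ERTU library 20. DESeq2 called 15 on CD and 23 on ERTU, and 0 by interaction.

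The pairs of groups on CD and on ERTU share no library, so that they measure the genotype difference separately. In both, 63 of the 77 members were lower in Gαq, 6 were higher and 8 differed in sign, while of all genes tested 36.0% were lower in both. Across the members the Spearman correlation of the log2 fold changes was 0.78, and 0.63 across all genes. Mrpl14, Mrpl2, Mrpl28, Mrpl37, Mrpl38, Mrpl39, Mrpl4, Mrpl44, Mrps2 and Mrps9 fell on both diets. Mrpl28 had -0.56 ± 0.12 on CD and -0.57 ± 0.12 on ERTU. Mrps2 had -0.48 ± 0.11 and -0.62 ± 0.11, and Mrpl14 -0.66 ± 0.13 and -0.49 ± 0.13. In 8 members on CD and 23 on ERTU the Gαq libraries lay entirely below the WT libraries; this held for 4.6% and 5.49% of all genes.

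**Figure D4:**
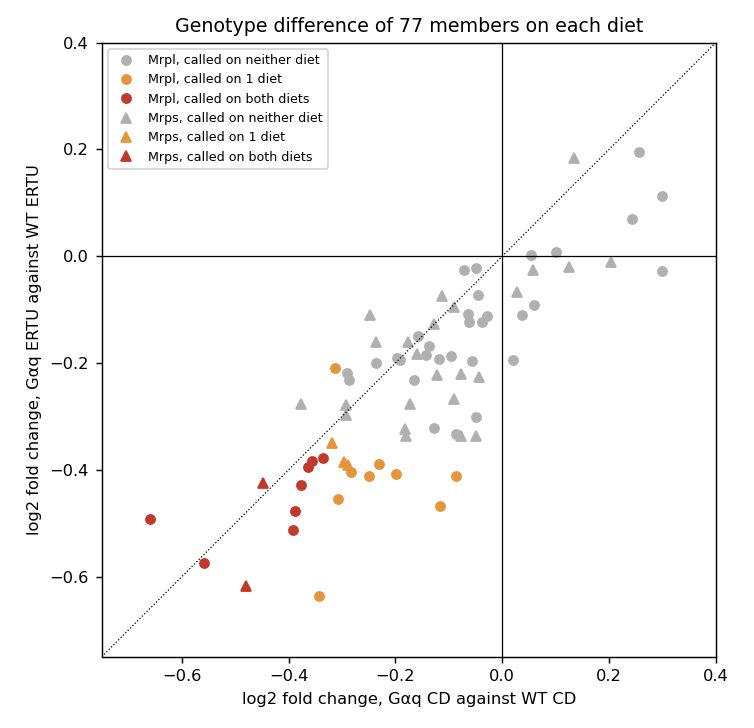
Each point is 1 of the 77 members, with the log2 fold change of Gαq CD against WT CD on the horizontal axis and of Gαq ERTU against WT ERTU on the vertical axis; circles are Mrpl and triangles Mrps, and the dotted line marks equal values. The field at the lower left, lower in Gαq on both diets, holds 63 points, among them the 10 called on both diets in red.

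ERTU did not produce a change in any member that passed the test. With genotype in the model, 0 of 77 were called between diets, as were 0.0% of all genes; 4 members had an unadjusted p under 0.05, all higher on ERTU, against 7.7% of all genes, and DESeq2 and voom called 0. They were Mrpl41 (0.17 ± 0.06), Mrps7 (0.13 ± 0.06), Mrpl9 (0.17 ± 0.07) and Mrps26 (0.20 ± 0.09). The median was 0.04 over the members, 0.03 for Mrpl and 0.07 for Mrps genes, with 60 of 77 values positive. In WT hearts alone the test called 0.0% of all genes and 0 members, at a median of 0.09 over the members, and 1 member had an unadjusted p under 0.05, against 2.24% of all genes. That member was Mrpl41, a large subunit protein found only in mitochondria, at 29.6, 25.9, 26.8 and 24.7 CPM in WT CD and 30.0, 30.3, 34.3, 35.2 and 31.8 in WT ERTU. The groups do not overlap, and the log2 fold change was 0.27 ± 0.08 (unadjusted p = 0.0044, edgeR).

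In WT hearts Mrps26 also lay higher in every ERTU library than in every CD library, at 40.0 ± 3.39 CPM (SD, n = 5) against 33.5 ± 1.68 (n = 4), which was so for 0.326% of all genes. In Gαq hearts the test of ERTU called 0.00615% of all genes and 0 members, and at an unadjusted p under 0.05 it gave 0 members, against 7.62% of all genes. The median was 0.01, and -0.02 with library totals. Mrps7, a protein of the head of the small subunit, was at 61.8, 52.9, 61.5, 61.3 and 60.7 CPM in Gαq CD and 66.7, 64.4, 67.9 and 65.8 in Gαq ERTU. All ERTU libraries are above all CD libraries, as for 0.744% of all genes, with a log2 fold change of 0.15 ± 0.08 (adjusted p = 0.66, edgeR). Exons of Gga3 and Mif4gd on the opposite strand cover 6.13% and 5.74% of those of Mrps7. For Mrpl36 and Mrps14, the members with the smallest p in Gαq hearts, it was -0.22 ± 0.11 and -0.22 ± 0.11. The 4 comparisons between pairs of groups share libraries, so these values are not independent of the genotype differences.

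Summed over the members, the level was 4339 ± 477 CPM (SD, n = 4) in WT CD, 4584 ± 184 (n = 5) in WT ERTU, 3854 ± 171 (n = 5) in Gαq CD and 3884 ± 340 (n = 4) in Gαq ERTU. The large and small subunit sums stayed in nearly one ratio, with means of 2.17, 2.15, 2.14 and 2.08 in the same order. Single libraries stood apart within their groups. WT CD library 5 had a sum of 3660 CPM against 4352 to 4675 in the other WT CD libraries, and held the lowest value of its group for 70 of the 77 members. Its cardiac muscle marker sum, 77131 CPM, was the lowest and its fibroblast marker sum, 3149 CPM, the highest of WT CD. Gαq ERTU library 16 held the highest value of its group for 64 members, at a sum of 4338 CPM, and library 17 the lowest for 45, at 3515 CPM, the lowest sum of all libraries. Library 17 had the highest cardiac muscle marker sum of Gαq ERTU, 97398 CPM. Without WT CD library 5 the genotype count rose from 29 to 40, and the median for ERTU in WT went from 0.09 to 0.01. Without Gαq ERTU library 16 the genotype count was 32, and the median for ERTU in Gαq -0.06.

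**Figure D5:**
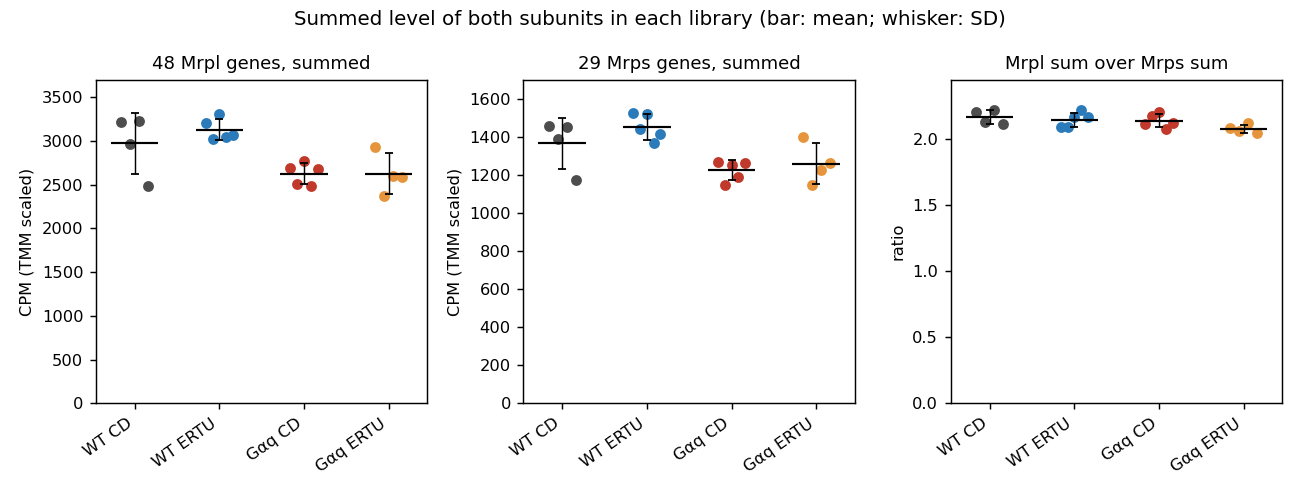
Points give, for each of the 18 libraries, the summed TMM-scaled CPM of the 48 Mrpl genes, of the 29 Mrps genes and the ratio of these sums, with the mean as a bar and the SD as whiskers; axes start at 0. Both sums have lower means in the Gαq groups, the lowest WT CD point is library 5, and the ratio stays between 2.05 and 2.22 in all libraries.

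Many other genes of mitochondrial translation fell in Gαq hearts as well. Of 65 on the 4 lists that follow, 39 fell and 0 rose with diet in the model, against 9.92% and 9.72% of all genes, and 62 values were negative; Pdf, Ybey and Rpusd4 had positive values. Of 5 mitochondrial ribosomal proteins with other names, 3 fell, among them Ptcd3 (-0.36 ± 0.07) and Dap3 (-0.17 ± 0.06), both of the small subunit. Of 16 translation factors 11 fell, with a median of -0.29. Tufm, the elongation factor that brings in the transfer RNA, had a log2 fold change of -0.52 ± 0.09 (adjusted p = 0.00044, edgeR), and Lrpprc, which stabilises mitochondrial messenger RNAs, -0.48 ± 0.09. Of 20 mitochondrial aminoacyl-tRNA synthetases and amidotransferase subunits, which charge the transfer RNAs, 15 fell, with a median of -0.30 and all 20 values negative; Vars2 had -0.56 ± 0.09. Of 24 assembly factors 10 fell, with a median of -0.22, such as Eral1 (-0.47 ± 0.09), a GTPase that binds the small ribosomal RNA, and the RNA methyltransferase Nsun4 (-0.44 ± 0.07).

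Mitochondrial DNA transcription and replication genes included 6 of 11 that fell, with a median of -0.20. Tfam, which packages mitochondrial DNA and starts its transcription, had -0.33 ± 0.06, the RNA polymerase Polrmt -0.39 ± 0.09, and the helicase Twnk -0.48 ± 0.08. Of 11 regulators of mitochondrial biogenesis 3 fell, among them the coactivator Ppargc1a (-0.37 ± 0.11). Of 84 nuclear genes for oxidative phosphorylation subunits, 42 fell and 0 rose, with a median of -0.25. The ribosome of the cytosol was different: of 76 genes 1 fell and 2 rose, the median was 0.12, and 71 of the 76 values were positive. Of these lists none had a gene called between diets, with genotype in the model, and 0 of all 16270 genes were called. For oxidative phosphorylation subunits 80 of the diet values were positive and 4 negative, at a median of 0.09. For the cytosolic ribosome 62 were positive and 14 negative, and for the translation factors 8 and 8. Over all genes tested 8050 were positive and 8220 negative.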

How the data were processed

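Poly(A) RNA from left ventricles was sequenced as read pairs. The authors aligned the reads to mm10 with STAR 2.6.0c and deposited raw counts per gene, made with featureCounts (Subread 1.6.2) from uniquely aligned proper pairs; no normalization was applied to these counts. Multimapping reads are therefore absent, and reads from genes that overlap may be lost or misassigned. The methods' wording on strand did not settle whether opposite-strand reads were separated, so overlaps over 5% of the exon bases are given for the members whose values are described, and those of the genes that fell. A second table of variance-stabilised values was not used here. Depth ran from 15383566 to 20908363 counts per library, which for the lowest member is a mean of 67.7 counts. Column names gave the group of each library and a running number that does not match the sample titles, and the labels name no mouse. The study's methods describe as many hearts per group as there are libraries, so each library was taken as 1 heart.

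Counts were tested with edgeR 4.0.16 (R 4.3.3; filterByExpr, TMM scaling, quasi-likelihood F test), on 16270 genes, with Benjamini-Hochberg adjustment over all of them and a threshold of 0.05. The genotype and diet effects came from an additive model and the pairs of groups and the interaction from a model with 1 mean per group, over all 18 libraries. CPM are TMM scaled, and the SE of a log2 fold change was taken from the F statistic. Alternatives were DESeq2 1.42.0, limma 3.58.1 voom with quality weights, other scalings and filters, fits of only the groups compared, and leaving out each library. On simulated counts the genotype test on 16270 genes recovered 88 of 100 genes changed 1.5-fold and 22 of 100 changed 1.25-fold.

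Of the identifiers in the table, 99.5% matched GENCODE M21 on GRCm38, used for symbols, positions and lengths. The members and lists were chosen with earlier results of these data known. Mrpl55 was moved to the proteins found only in mitochondria after the values were seen. Members were named where they belong to the stalk, the exit tunnel, the human cardiomyopathy genes or the proteins placed elsewhere than their symbol says, had 1 of the 6 smallest p of their subunit by genotype or of the 3 smallest in another comparison, or had the highest or lowest level per length; others named were chosen after their values were seen. Further marker lists (endothelium, macrophage, lymphocyte, smooth muscle, red blood cell and fat) were measured: of their tested genes, 3 of 8 endothelial and 1 of 6 smooth muscle markers were called lower in Gαq, 2 of 9 macrophage and 1 of 5 lymphocyte markers higher, and 0 of 4 red blood cell and 0 of 4 fat markers in either direction.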

Additional observations from a re-analysis of the deposited data

Results flagged for a closer look

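For the 41 named members, the highest and lowest library of each group were set against the rest of the group by Dixon's ratio, the gap to the nearest library over the range. The same was done in each group for the median deviation of the Mrpl and of the Mrps genes and for the ratio of their sums. Of 176 groups of values, 164 of single members and 12 of these summaries, 7 stood out, all of single members. About 8.8 would be expected by chance if these groups of values were independent. They are not, because the members share libraries: WT CD library 5 held the lowest value of its group for 70 of the 77 members. In WT CD library 5, Mrpl3 was at 96.0 CPM against 110 to 111 in the other libraries (ratio 0.913), and Mrpl24 at 68.0 against 81.9 to 83.6 (0.887). In Gαq ERTU, Mrpl44 was high in library 16, at 53.9 CPM against 41.5 to 43.1 (0.867), and Mrpl30 low in library 17, at 138 against 181 to 188 (0.862). In Gαq CD library 7, Mrps7 was at 52.9 CPM against 60.7 to 61.8 (0.87). In WT ERTU, Mrpl14 was high in library 13, at 84.7 CPM against 68.4 to 71.1 (0.832), and Mrpl10 low in library 14, at 51.3 against 58.7 to 61.4 (0.731). All of these libraries were kept in all tests, and leaving each out is among the alternatives.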

How the results depend on the processing

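No paired analysis was possible because no replicate number of a library occurs in more than 1 group's columns. On CD, where 11 members were called, 7 were called without a filter on low counts, 20 with voom and quality weights, 6 in a fit of only the 2 groups compared, and 4 to 20 with 1 library left out. On ERTU, where 21 were called, voom gave 33 and leaving out 1 library gave 12 to 23. The cause of these shifts was not tested. By genotype the count ran from 25 to 43 over all alternatives, against 29, and 24 of the 29 members stayed called in each of them; Mrpl22, Mrpl47, Mrpl55, Mrps17 and Mrps28 did not. On CD, 4 of 11 stayed called in each (Mrpl14, Mrpl28, Mrps2 and Mrps9), and on ERTU 11 of 21. The comparisons of diet, of ERTU in either genotype and of the interaction called 0 members in every alternative run. No called member changed sign in any alternative. With 1 library left out the genotype median of the members stayed between -0.22 and -0.16, and the diet median between 0.00 and 0.06. With library totals the median on CD was -0.08, against -0.14. In the simulation most genes with the smaller of the tested folds were missed, and the parts of depth, spread and number of libraries in this were not tested.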

Other observations

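Relative to the mitochondrial ribosome, the nuclear genes for oxidative phosphorylation subunits had a lower mean level in Gαq than in WT hearts on each diet. Their summed CPM divided by that of the 77 members was 11.8 ± 0.445 (SD, n = 4) in WT CD, 12.05 ± 0.241 (n = 5) in WT ERTU, 10.8 ± 0.419 (n = 5) in Gαq CD and 11.3 ± 0.112 (n = 4) in Gαq ERTU. Every Gαq CD value, 10.2 to 11.3, lay below every WT CD value, 11.5 to 12.3, and no test was made of this ratio.

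On ERTU, all 4 human cardiomyopathy genes had an unadjusted p under 0.05 between genotypes, with log2 fold changes of -0.41 for Mrpl3, -0.43 for Mrpl44, -0.34 for Mrps14 and -0.34 for Mrps22, and 2 of them, Mrpl3 and Mrpl44, were called; 35 of the 77 members and 1794 of 16270 genes were lower at this threshold. On CD, Mrpl3 and Mrpl44 had an unadjusted p under 0.05, and Mrps14 and Mrps22 had -0.05 and -0.08; 28 of the 77 members and 1719 of 16270 genes were lower at this threshold. The interaction called none of the 4.

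WT ERTU library 14 held the lowest value of its group for 40 of the 77 members and the highest for 13. Its cardiac muscle marker sum, 72205 CPM, was the lowest and its fibroblast marker sum, 2885 CPM, the highest of WT ERTU, as in library 5 of WT CD. In Gαq ERTU library 17, which held the lowest value of its group for 45 members, the cardiac muscle marker sum, 97398 CPM, was the highest of its group.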
